A study of Gallus gallus with 6 samples.

Results

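The miR-99, miR-100 and miR-125 families of the chicken testis were described from a table of mature miRNA sequences and their counts. Members were chosen by name alone, as every entry called miR-99, miR-100 or miR-125 with an optional letter a or b and an optional arm (5p or 3p). Chicken names such as gga-miR-99a, gga-miR-100 and gga-miR-125b and the names of other species were taken alike. The rule gave 16 of the 1151 distinct sequences of the table, on 17 of its 1302 lines. Of these sequences 8 carry chicken names and 8 carry names of other animals, and an entry with a precursor number (tgu-miR-125-2-3p) was outside the rule. Small RNA came from the testis (left side) of breeder cocks of Cobb500, a broiler parent strain, at 40 weeks of age. The control birds ate a corn and soybean diet (3 libraries, C), and the treated birds ate the same diet with 10 g of Astragalus polysaccharide (APS), a plant root extract, per kg of feed (3 libraries, A). The methods describe a single bird drawn at random from every replicate of a diet, and testes of only part of these birds were sequenced. The labels describe the birds per diet differently. A library is taken here to be a single bird, and on that reading p-values measure the spread between these birds. The tissue is whole testis, a mixture of germ cells, supporting cells, muscle and vessels, and fewer cells of a type and less RNA per cell cannot be told apart.

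A miRNA guides a silencing complex to messenger RNAs that pair with its seed, the bases near its 5′ end. miR-99 and miR-100 share a seed and form a single family, which in human cells represses mTOR and the IGF1 receptor, parts of growth signalling. miR-125 is the vertebrate relative of lin-4, the developmental timing miRNA of Caenorhabditis elegans, and in vertebrates the genes of both families lie in clusters with a let-7 gene. In the RefSeq gene order of chicken (assembly bGalGal1.mat.broiler.GRCg7b, used for gene order only) MIR99A is followed by MIRLET7C and then MIR125B2. On the other cluster MIR100 is followed by MIR6675, MIRLET7A2 and MIR125B-1. miR-125b therefore has 2 genes and stands on 2 lines of the table with the same mature sequence, whose counts were summed.

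The sequences most important for telling the members apart are printed first, as the deposited table gives them, with bases 2 to 8 (the seed) in capitals. All 7 members with the miR-99 and miR-100 seed share ACCCGTA. Positions are counted from 1 at the 5′ end. Differences are given between the printed sequences, and names are shortened. Suffixes in the full names mark changes from the miRBase entry. L and R stand for bases gained or lost at the 5′ and 3′ ends, and ss for substitutions. Such names are gga-miR-99a-5p_R-1, gga-miR-100-5p_R+1, ccr-miR-99_R+2_1ss1AG, ssa-miR-99-5p_R+2 and aca-miR-99b-5p_1ss23GT. Part of the differences below therefore does not lie between the named entries. gga-miR-100-5p differs from gga-miR-99a-5p by T16A and by the bases ga at its 3′ end. ccr-miR-99, a carp name, differs from it by A1G and the same 2 added bases, and ssa-miR-99-5p, an Atlantic salmon name, is gga-miR-99a-5p with gaa added. cfa-miR-99b, a dog name, differs by A1C, T11A, T16C and T21C and 1 added base, and aca-miR-99b-5p, a green anole lizard name, differs from gga-miR-100-5p by T21C and A23T.
gga-miR-99a-5p: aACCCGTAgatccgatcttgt
gga-miR-100-5p: aACCCGTAgatccgaacttgtga
ccr-miR-99: gACCCGTAgatccgatcttgtga
ssa-miR-99-5p: aACCCGTAgatccgatcttgtgaa
aca-miR-99b-5p: aACCCGTAgatccgaacttgcgt
cfa-miR-99b: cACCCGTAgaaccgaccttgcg

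The 5 members with the miR-125 seed share CCCTGAG. sha-miR-125a, a Tasmanian devil name, is gga-miR-125b-5p with aa added at the 3′ end, and ssa-miR-125a-5p is the same sequence with at added, so both hold the whole chicken sequence. The full names of both end in R+2, so the added bases are not part of the named entries. Every member with the name of another animal, these longer forms included, belongs to the class of the table that was matched to miRBase entries of other species and not placed in the chicken genome. cgr-miR-125a-5p, a Chinese hamster name, shares only the first 13 bases with gga-miR-125b-5p. cin-miR-125-5p, a sea squirt name, is 18 bases long and also shares the first 13. Its full name, cin-miR-125-5p_R-3_1ss14AT, marks a substitution at base 14.
gga-miR-125b-5p: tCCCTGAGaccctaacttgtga
sha-miR-125a: tCCCTGAGaccctaacttgtgaaa
ssa-miR-125a-5p: tCCCTGAGaccctaacttgtgaat
cgr-miR-125a-5p: tCCCTGAGaccctttaacctgt
cin-miR-125-5p: tCCCTGAGacccttaaac

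The other 4 members come from 3p arms, the opposite strand of the hairpin, which usually is the less abundant product. Their seeds differ from those of the 5p arms and they are shown because the arm ratios below rest on them. In full they are gga-miR-99a-3p_R+2, gga-miR-100-3p_L+1R-1 and gga-miR-125b-3p_R-1_1ss21CT, the last with T in place of C at base 21. A 3p member and a 5p member hold an unread base, C12N against gga-miR-100-5p and A1N against gga-miR-125b-3p. Outside the members no sequence held ACCCGTA at bases 2 to 8, and only mmu-miR-351-5p held CCCTGAG, with 4 counts, all in C replicate 2.
gga-miR-99a-3p: cAAGCTCGcttctatgggtctgt
gga-miR-100-3p: cAAGCTTGtatctataggtat
gga-miR-125b-3p: aCAAGTCAggctcttgggact

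The C libraries summed to 497286, 743187 and 533096 counts and the A libraries to 576714, 721285 and 632748. Levels are given as CPM, counts relative to library totals adjusted by TMM, a normalization to the bulk of the sequences, and 3 counts correspond to 4.04 to 6.03 CPM before TMM. The diets were compared by edgeR's quasi-likelihood test over the 774 sequences whose deposited normalized value averaged 1 or more in C or in A, with Benjamini-Hochberg adjustment over all 774. Of the members 12 passed this filter and 4 did not. The biological coefficient of variation, the spread between libraries of a diet, was 30.5%. For the tissue label, gga-miR-202-5p, a miRNA known from gonads, averaged 57256 ± 11864 CPM in C against 46108 ± 8419 CPM in A, and the germ cell and ciliated cell list (miR-34b, miR-34c and miR-449 sequences) is given beside the ratios below.

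gga-miR-99a-5p was the most abundant sequence of the table. Its counts were 48406, 106448 and 63374 under the control diet (replicates 1 to 3) and 60751, 92290 and 67203 under APS. These were 86653, 164512 and 115499 CPM in C and 101795, 141707 and 99992 CPM in A, so replicate 2 was the highest library of each diet and the diets overlapped. The level averaged 122221 ± 39362 CPM in C against 114498 ± 23581 CPM in A (mean ± SD of 3 libraries, as for all means here). It held 11.98% ± 2.30 of all counts in C and 11.3% ± 1.28 in A, and 73.1% ± 1.87 and 73.9% ± 0.492 of the members' counts.

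gga-miR-125b-5p was the 11th most abundant sequence. Levels of 27384, 47381 and 27981 CPM were measured in C and of 25454, 34090 and 24330 CPM in A. C replicate 2 was again the highest and A replicate 2 the next, and the other C libraries lay within the range of A. Means were 34249 ± 11377 CPM for C and 27958 ± 5340 CPM for A.

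gga-miR-100-5p ranked 26th. Levels of 5505, 11135 and 7727 CPM were measured in C and of 8665, 12328 and 7975 CPM in A. Here A replicate 2 was the highest library and C replicate 2 the next, while the other C libraries were the lowest of the 6. Means were 8122 ± 2836 CPM for C and 9656 ± 2340 CPM for A. Over the 6 libraries the order gga-miR-99a-5p, gga-miR-125b-5p, gga-miR-100-5p held in every library, with no overlap between neighbours.

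**Figure D1:**
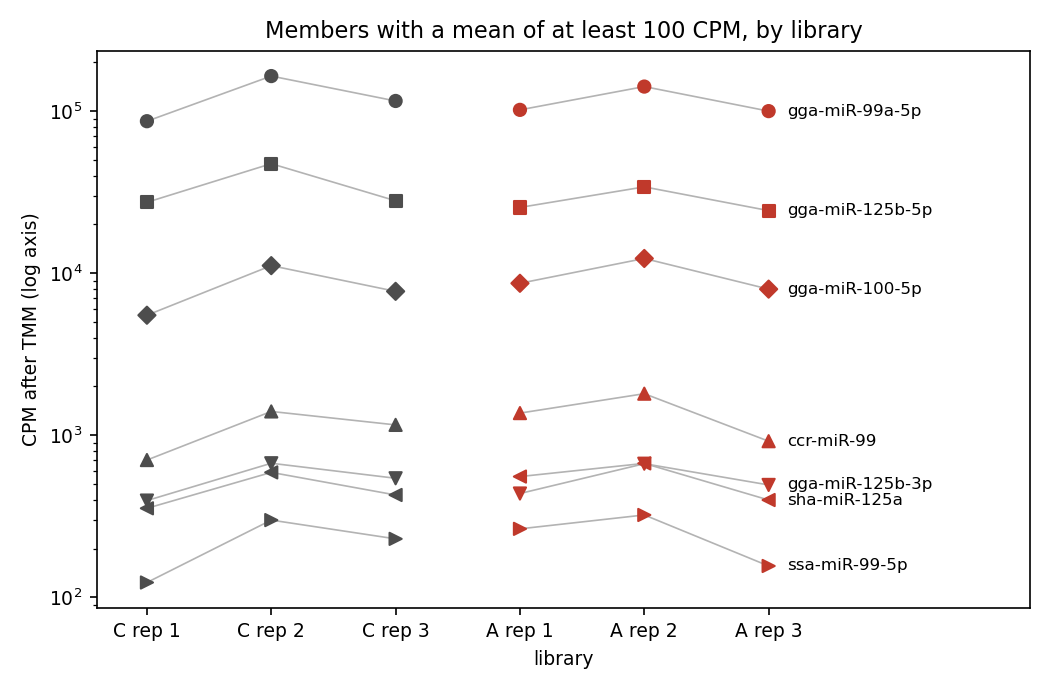
Levels of the 7 members with a mean of at least 100 CPM in each library, in CPM after TMM on a log axis, C libraries in grey and A libraries in red. gga-miR-99a-5p lies between 86653 and 164512 CPM, and the second library of each diet is the highest of its diet for all 7.

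The next members were chiefly longer or altered forms. ccr-miR-99 had 704, 1403 and 1159 CPM in C and 1371, 1806 and 920 CPM in A. sha-miR-125a had 354, 590 and 428 CPM in C and 556, 671 and 399 CPM in A. ssa-miR-99-5p had 124, 300 and 230 CPM in C and 265, 322 and 156 CPM in A. In all 3 of them A replicate 2 was the highest and the diets overlapped. ssa-miR-125a-5p had 35.8, 49.5 and 43.7 CPM in C and 53.6, 72.2 and 50.6 CPM in A, and it was the only tested member whose diets did not overlap.

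The 3p arms were much rarer than their 5p partners and differed in rarity. gga-miR-125b-3p had 396, 672 and 543 CPM in C and 437, 668 and 494 CPM in A. gga-miR-99a-3p had 51.9, 98.9 and 69.3 CPM in C and 78.8, 117 and 53.6 CPM in A. gga-miR-100-3p was read once, in C replicate 2. As a share of both arms over the 6 libraries, the 3p arm was 1.69% for miR-125b (exact Clopper-Pearson 95% interval 1.62% to 1.77%), 0.0661% for miR-99a (0.0587% to 0.0742%) and 0.00302% for miR-100 (7.65e-05% to 0.0168%), intervals for counting error only. The 3p share of miR-125b ran from 1.40% to 1.99% in single libraries and that of miR-99a from 0.0535% to 0.0823%, so the former was the higher in every library. The 5p sequence of miR-125b pools 2 lines and its 3p sequence stands on 1, so its arms are not matched as those of miR-99a are. tgu-miR-125-2-3p, outside the rule, averaged 50.2 CPM in C and 55.2 CPM in A and is not counted here.

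In the diet comparison none of the 12 tested members passed an adjusted p under 0.05, and none of the 774 sequences did, which is 0% called. No member had an unadjusted p under 0.05 either, against 46 of the 774 sequences (5.94%). Diets did not overlap for 1 of the 12 tested members and for 101 of all sequences (13%). The log2 fold changes (A against C) of the tested members were positive for 8 and negative for 4, with a median of 0.18, while all sequences had 349 positive and 425 negative values and a median of −0.08. Several members are longer or altered forms of another member, so the 12 values are not independent. gga-miR-99a-5p and gga-miR-125b-5p, the most abundant members, were both negative. The edgeR adjusted p-values of the members ran from 0.690 to 0.986.

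For gga-miR-99a-5p the edgeR log2 fold change was −0.09 (SE 0.23, adjusted p = 0.939). gga-miR-125b-5p had −0.29 (SE 0.23, edgeR adjusted p = 0.754) and gga-miR-100-5p had 0.25 (SE 0.26, edgeR adjusted p = 0.815). Single libraries moved all 3 values. Leaving out C replicate 2 gave 0.17, 0.00479 and 0.54 in this order, and leaving out A replicate 2 gave −0.31, −0.49 and 0.00559. The value of gga-miR-99a-5p also lay at −0.28 without C replicate 1, and that of gga-miR-100-5p at 0.04. Among the lower members, ccr-miR-99 had 0.33 (SE 0.30), sha-miR-125a 0.24 (SE 0.26) and ssa-miR-125a-5p 0.45 (SE 0.28, edgeR adjusted p = 0.690, the smallest of the 12). With C replicate 2 left out these became 0.55, 0.46 and 0.55, and with A replicate 2 left out 0.04, 0.03 and 0.24. Without C replicate 1 they were 0.10, 0.10 and 0.34, and without A replicate 3 they were 0.54, 0.42 and 0.54.

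**Figure D2:**
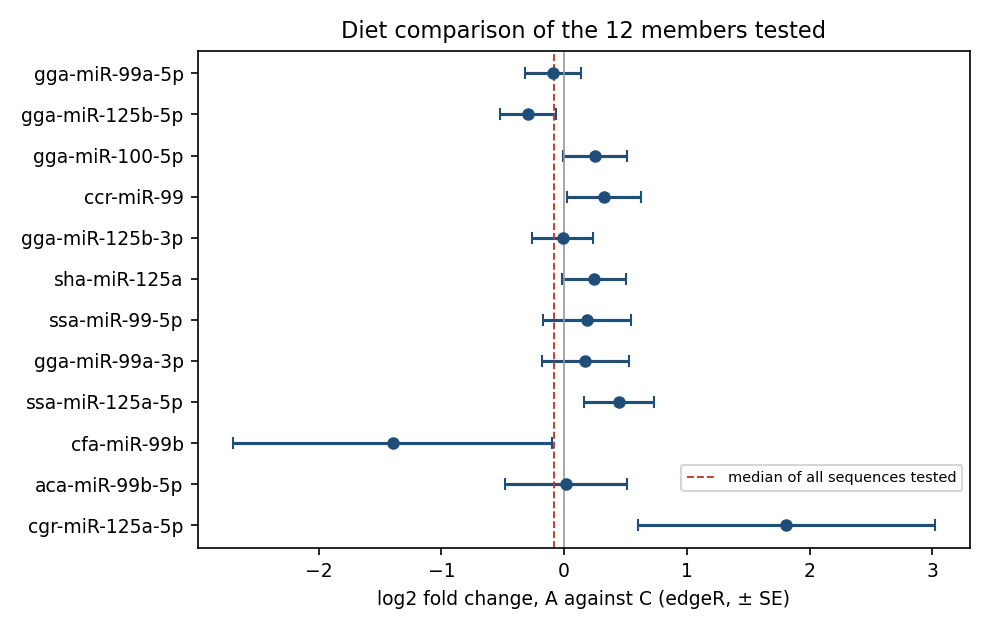
Log2 fold change (A against C) of the 12 tested members from edgeR, with the median of all 774 sequences (−0.08) as a dashed line. Points carry standard errors derived from the test statistic. No member passed the test, and the widest errors are those of cfa-miR-99b and cgr-miR-125a-5p.

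Summed levels gave no difference that the 6 libraries could show. The miR-99 and miR-100 sequences (9 of them) together averaged 131775 ± 42706 CPM in C against 125878 ± 26395 CPM in A (p = 0.8 in a two-sided exact permutation test, which with 3 against 3 cannot go below 0.1). The 7 miR-125 sequences averaged 35289 ± 11623 CPM in C against 29102 ± 5577 CPM in A (exact permutation p = 0.5). All members together held 13.6%, 19.7% and 15.8% of the counts of the C libraries and 14.4%, 17.3% and 14.3% of the A libraries (exact permutation p = 0.7).

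The members varied together between libraries. C replicate 2 and A replicate 2 were the highest libraries of their diets in 10 of the 12 tested members and in all 7 with a mean of at least 100 CPM. Of all 774 tested sequences 124 (16.0%) had this pattern, and 44 of the 179 with at least 100 CPM (24.6%) did, the members included. C replicate 2 exceeded the mean of the other C libraries 1.63-fold for gga-miR-99a-5p, 1.71-fold for gga-miR-125b-5p and 1.68-fold for gga-miR-100-5p. A replicate 2 exceeded the mean of the other A libraries 1.40-fold, 1.37-fold and 1.48-fold. The exceptions were cfa-miR-99b and cgr-miR-125a-5p. C replicate 2 and A replicate 2 had the lowest TMM factors (0.871 and 0.903, the others 1.03 to 1.12), which raises CPM there. As a share of all counts gga-miR-99a-5p held 14.3% in C replicate 2 against 9.73% and 11.9%. It held 12.8% in A replicate 2 against 10.5% and 10.6%, so the gaps were smaller. These members share libraries and normalization, so they are not independent repeats of the pattern, and nothing in the labels ties the libraries of a replicate number to each other.

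Marker lists of other cell types were set beside this pattern, in CPM after TMM. The low TMM factors of C replicate 2 and A replicate 2 raise the ratios of every list alike. The smooth muscle list (miR-143 and miR-145 sequences, 4 of 5 tested) was 1.52-fold higher in C replicate 2 and 1.61-fold higher in A replicate 2 than the mean of the other libraries of the diet. Its summed level was 62384 to 110810 CPM in C and 60741 to 108317 CPM in A. The vessel list (miR-126 sequences, 4 of 4 tested) was 2.12-fold and 1.70-fold higher, between 5540 and 18051 CPM in C and between 3860 and 14538 CPM in A. The miR-10a and miR-10b list, which was not taken as a marker of a cell type, was 1.63-fold and 1.41-fold higher. The same pair of ratios was 1.60 and 1.13 for the striated muscle list (miR-1 and miR-133), 1.35 and 1.11 for the white cell list (miR-142, miR-155 and miR-223) and 0.589 and 1.12 for the red cell list (miR-144 and miR-451). It was 1.14 and 0.910 for the gonad list (miR-202), 1.05 and 0.845 for the neural list (miR-9 and miR-124) and 0.872 and 0.929 for the germ and ciliated list. A single sequence made up most of these sums. In the C means, miR-143-3p held 84741 of 85454 CPM of the smooth muscle list and gga-miR-126-3p 9140 of 11691 CPM of the vessel list. gga-miR-133a-3p held 149 of 163 CPM (striated muscle), gga-miR-142-5p 885 of 1216 CPM (white cell) and gga-miR-144-3p 157 of 186 CPM (red cell). miR-145 averaged 18.9 CPM and miR-451 3.60 CPM in C, and miR-223 had 2 counts, all in C replicate 2. The part of muscle, vessel or other tissue in the members' levels was not tested.

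**Figure D3:**
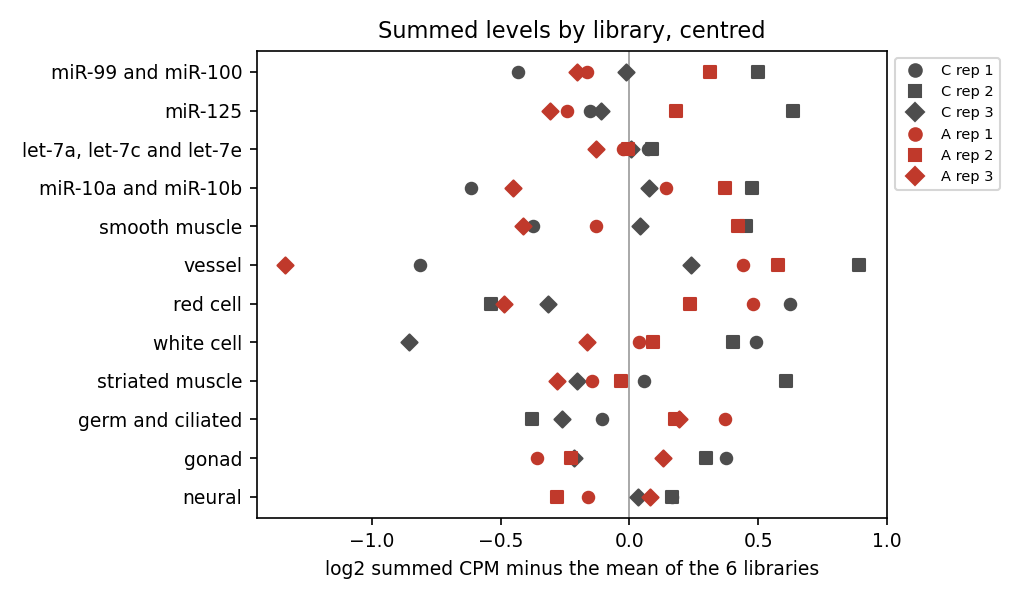
Summed level of each list in each library, as log2 CPM minus the mean of the 6 libraries, C in grey and A in red, with symbols for the replicates. The miR-99 and miR-100, miR-125, miR-10, smooth muscle and vessel rows have C replicate 2 and A replicate 2 (squares) at the right, while the let-7 row is narrow.

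Genes of let-7c and let-7a are neighbours of these genes, and the summed let-7 list was hardly higher in replicate 2. The sequence listed for gga-let-7c-5p, also named as a let-7a variant, had replicate 2 as the highest library of each diet. It had 15657, 18723 and 15202 CPM in C and 14802, 17108 and 11866 CPM in A. The more abundant gga-let-7a-5p had 42408, 41814 and 38965 CPM in C and 37839, 38730 and 36460 CPM in A. The list was chosen by name and is wider than the neighbours. It takes in let-7e, which is not in the gene order above. It also takes in gga-let-7a-5p_2ss12GT18TC, which differs from gga-let-7a-5p at bases 12 and 18 and averaged 16630 CPM in C. Summed, let-7a, let-7c and let-7e (8 sequences, 7 tested) were 1.03-fold higher in C replicate 2 and 1.05-fold higher in A replicate 2. Their summed level was 75415, 76241 and 72045 CPM in C and 70582, 71560 and 65654 CPM in A, a span of values that was narrow beside that of miR-99a. In CPM after TMM the C and A libraries of this sum did not overlap, while as shares of all counts they overlapped. The narrow span also rests on this scaling, since as shares replicate 2 was the lowest library of each diet. Of the 7 tested, 2 had positive and 5 negative log2 fold changes and none had an unadjusted p under 0.05 in edgeR. Since mature let-7a comes from several genes, these sums do not measure the transcripts of the clusters.

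Likeness of pattern was measured as the root mean square difference between centred log2 CPM over the 6 libraries, for 172 other sequences of at least 100 CPM. The nearest to gga-miR-99a-5p was gga-miR-26a-5p at 0.0740, followed by miR-143-3p at 0.106 and gga-miR-24-3p at 0.116. For gga-miR-125b-5p it was gga-miR-26a-5p at 0.135, then gga-miR-133a-3p, a muscle miRNA, at 0.136 and gga-miR-199-3p at 0.164. For gga-miR-100-5p it was gga-miR-199-5p at 0.156, followed by a predicted sequence at 0.168 and cgr-miR-143 at 0.169. Among the 3 leading members, gga-miR-99a-5p and gga-miR-125b-5p differed by 0.150, gga-miR-99a-5p and gga-miR-100-5p by 0.179, and gga-miR-125b-5p and gga-miR-100-5p by 0.305. The last value is larger than the distance of either to its 3 nearest sequences.

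Ratios of members within a library do not depend on the scaling between libraries. Relative to gga-miR-99a-5p, gga-miR-100-5p stood at 6.35%, 6.77% and 6.69% in C and at 8.51%, 8.70% and 7.98% in A. Every A value exceeded every C value, with a mean log2 difference of 0.35 (1.27-fold; log2 SD 0.05 in C and 0.07 in A). The two-sided exact permutation test gave p = 0.1, the smallest it can give with 3 against 3, and an adjusted p of 0.2 over 6 ratios, or 0.25 over the 5 that leave out the arm ratio of miR-100, and passed in neither case. Counting error was smaller than the gap, since the share of gga-miR-100-5p in both sequences had an exact 95% interval reaching at most 6.48% in C and at least 7.20% in A. Of 14706 ratios between pairs of other sequences of at least 100 CPM, 15.4% did not overlap between the diets, which is the background of this pattern. Leaving out 1 library at a time gave log2 differences from 0.32 to 0.38.

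The ratio of gga-miR-125b-5p to gga-miR-100-5p was 4.97, 4.26 and 3.62 in C but 2.94, 2.77 and 3.05 in A. Every A value was below every C value, with a log2 difference of −0.54 (1.46-fold higher in C, exact permutation p = 0.1, adjusted p = 0.2 over 6 ratios or 0.25 over 5). The background of 15.4% without overlap holds here too. This ratio shares gga-miR-100-5p with the one before, and any 2 of the 3 ratios between the leading members set the third, so it is not a separate result. The ratio of gga-miR-125b-5p to gga-miR-99a-5p was 31.6%, 28.8% and 24.2% in C and 25.01%, 24.1% and 24.3% in A. C replicate 3 lay within the A range, and the log2 difference was −0.20 (exact permutation p = 0.3, adjusted p = 0.36). The ratios of 5p to 3p arm also overlapped between the diets, with log2 differences of −0.22 for miR-99a (exact permutation p = 0.4, adjusted p = 0.4) and −0.26 for miR-125b (exact permutation p = 0.2, adjusted p = 0.3). The arms of miR-125b are not matched, since the 5p sequence pools lines and the 3p sequence does not. The arm ratio of miR-100 rests on a single count of the 3p arm and was not read.

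Beside these ratios, the longer sequences as a whole were more frequent in the A libraries. Sequences of at least 23 bases outside the members held 25.5%, 23.9% and 26.1% of those counts in C and 30.1%, 26.9% and 27.8% in A, with no overlap. gga-miR-100-5p is listed at 23 bases, gga-miR-99a-5p at 21 and gga-miR-125b-5p at 22. The summed germ and ciliated list also did not overlap in CPM after TMM, at 990, 819 and 889 CPM in C and 1377, 1205 and 1219 CPM in A. As shares of all counts, C replicate 1 lay slightly above A replicate 2, so the diets overlapped for this list. Of its 11 sequences 9 were tested, 7 with positive and 2 with negative log2 fold changes, and in edgeR 1 passed an unadjusted p under 0.05. Most of the sum was gga-miR-34b-5p, whose mean was 580 ± 59.1 CPM for C against 886 ± 76.0 for A, while gga-miR-449a averaged 143.6 ± 25.4 CPM for C against 125.4 ± 24.2 for A. The part of sequence length or of germ and ciliated cells in the ratios of gga-miR-100-5p was not tested.

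**Figure D4:**
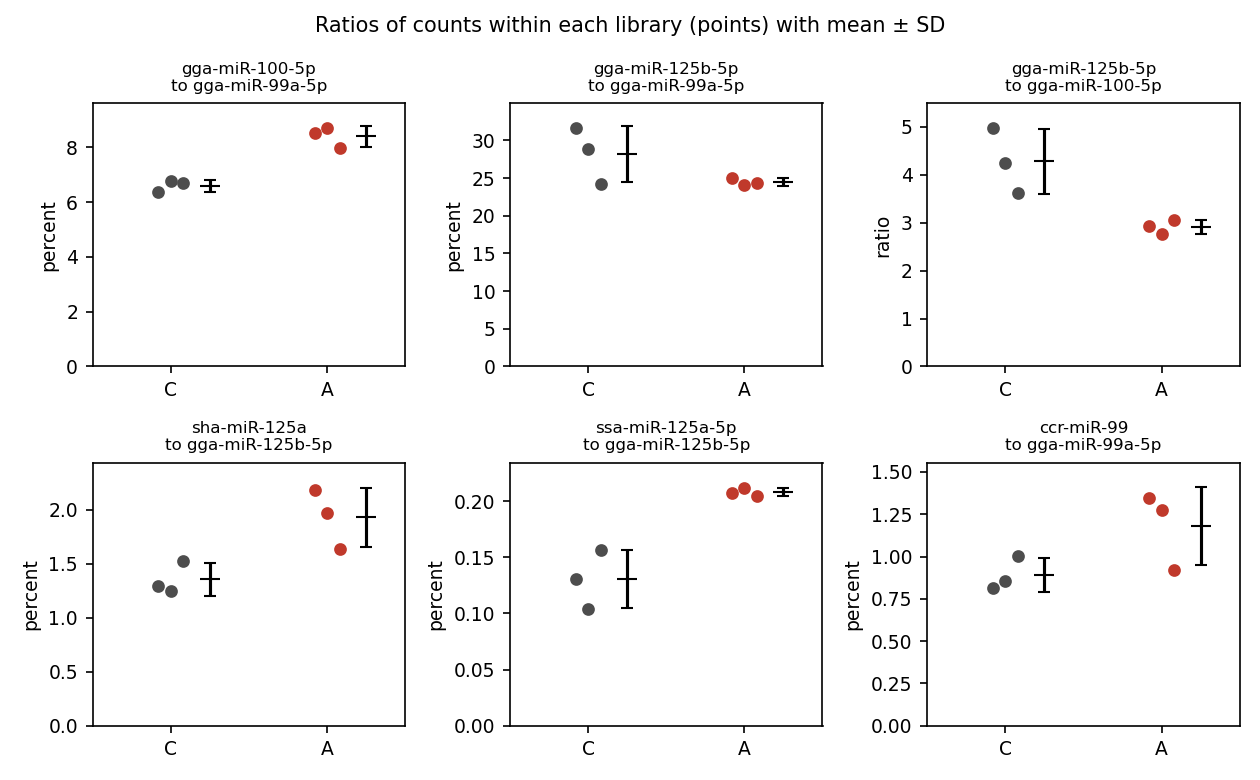
Ratios of counts within each library, in percent or as a plain ratio, for C (grey) and A (red), with the mean and SD beside the points and axes from 0. gga-miR-100-5p to gga-miR-99a-5p lies at 6.35% to 6.77% in C and 7.98% to 8.70% in A, and gga-miR-125b-5p to gga-miR-99a-5p overlaps.

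The longer forms of gga-miR-125b-5p were compared with the form they extend, a comparison added after the values were seen. The ratio of sha-miR-125a to gga-miR-125b-5p was 1.29%, 1.25% and 1.53% in C and 2.19%, 1.97% and 1.64% in A. The ratio of ssa-miR-125a-5p to gga-miR-125b-5p was 0.131%, 0.104% and 0.156% in C and 0.207%, 0.212% and 0.205% in A. Neither ratio overlapped between the diets, with log2 differences of 0.50 and 0.70 (exact permutation p = 0.1 each, adjusted p = 0.2 over 4 ratios). For both, the exact counting intervals of some C and A libraries overlapped, and ssa-miR-125a-5p rests on 20 to 47 counts per library. The form of miR-99a extended by 3 bases, ssa-miR-99-5p, had ratios of 0.143%, 0.183% and 0.198% in C and 0.260%, 0.228% and 0.156% in A, which overlapped (log2 difference 0.28, exact permutation p = 0.4). ccr-miR-99, which also differs in its first base, had a log2 difference of 0.39 and overlapped (exact permutation p = 0.2). Among 20 pairs outside the members in which a sequence extends another by 1 to 3 bases, the longer form was relatively higher in A in 13 and lower in 7. In 2 (10%) it was higher without overlap, and in a further pair, of predicted sequences, it was lower without overlap. Both directions belong to the background of a ratio without overlap. Sequences of at least 24 bases outside the members held 15.7%, 14.7% and 16.2% of those counts in C and 18.7%, 16.5% and 17.6% in A. Its part in these ratios was not tested.

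Members carrying dog and hamster names behaved apart from the rest. cfa-miR-99b was read 1, 72 and 1 times in C and 1, 4 and 24 times in A. cgr-miR-125a-5p had 0, 5 and 0 counts in C, where the zeros allow up to 6.03 and 5.63 CPM before TMM, and 2, 1.5 and 16 in A. Their highest libraries were C replicate 2 and A replicate 3 in both, and neither differs from its chicken relative by length alone. edgeR gave log2 fold changes of −1.40 (SE 1.30) and 1.81 (SE 1.21) with adjusted p-values of 0.809 and 0.701. Leaving out 1 library at a time gave −3.23 to 2.87 for cfa-miR-99b and 0.21 to 5.65 for cgr-miR-125a-5p, so single libraries decide both values. In the same libraries, other sequences named from other species and without a place in the chicken genome were the most numerous, with 249 detected in C replicate 2, 193 in A replicate 3 and 136 to 155 in the remaining libraries. Their summed share of all counts did not follow, as C replicate 2 was the lowest library at 6.22% and A replicate 3 lay at 7.85%, within a range of 6.22% to 8.26%. The source of these reads was not tested.

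**Figure D5:**
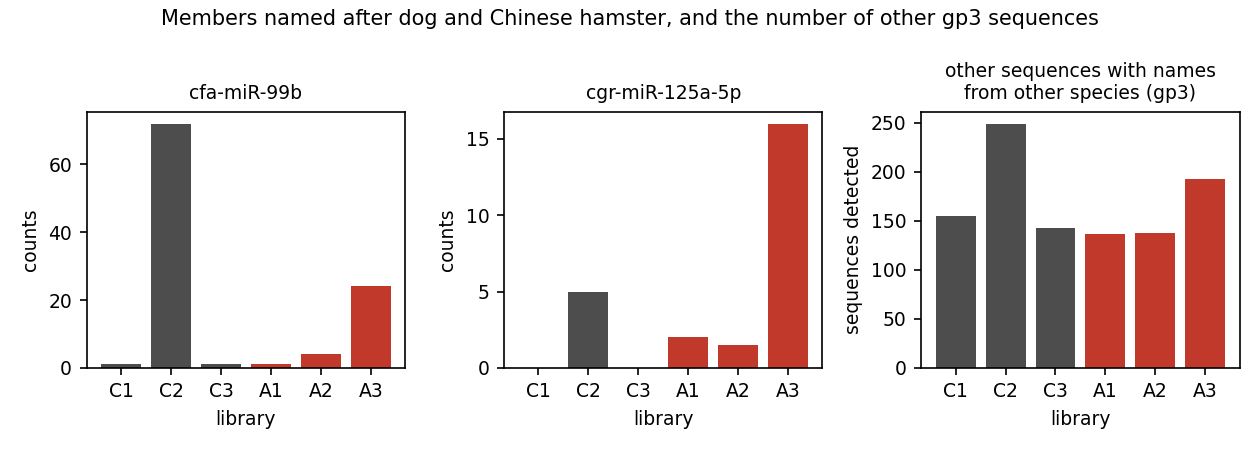
Counts of cfa-miR-99b and cgr-miR-125a-5p in each library, and the number of other sequences in the class named from other species and not placed in the chicken genome (gp3), with bars from 0. C replicate 2 and A replicate 3 are the highest libraries in all 3 panels.

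The last members lay near or below detection. aca-miR-99b-5p had 6, 9.5 and 6 counts in C and 7.5, 12 and 3.5 in A, with an edgeR log2 fold change of 0.01 (SE 0.50). The unread-base form of gga-miR-100-5p summed to 2.73 counts, gga-miR-100-3p to 1, cin-miR-125-5p to 0.5 and the unread-base form of gga-miR-125b-3p to 0.0909 over the 6 libraries. These fractional values arise where a read is divided between table entries, and no comparison was made with them.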

How the data were processed

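Small RNA of 3 C and 3 A testis libraries was used. The deposited raw values are expected counts, because the authors' pipeline (ACGT101-miR 4.2, per the submitters' processing notes) kept reads of 18 to 26 bases, aligned them to miRBase precursors with 1 mismatch allowed, and divided a sequence between its table lines. Deposited normalized values, which are the raw values multiplied by a constant for each library, are a signal used here for the filter. The chicken genome build was not given in the sources used here. Group means, fold changes, their log2 values and p-values of the authors' own comparison were not used. The paper and the labels describe the birds per diet, the RNA extraction and the sequencer differently.

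Lines were summed per distinct sequence (94.3% of sums whole within 0.001, 87.3% before) and rounded. edgeR 4.0.16 (R 4.3.3) tested A against C without a block, on 774 sequences whose normalized value averaged 1 or more in C or A (377 were below), with Benjamini-Hochberg adjustment. The script was tested on simulated data. Ratios (pseudocount 0.5) and sums were compared by exact permutation (two-sided, smallest p 0.1). Precision was limited by totals of 497286 to 743187 counts. Reads carried no molecular tags, so intervals and floors cover counting error only. All members are named; other miRNAs are named from the fixed lists or as the 3 nearest patterns. Members and lists were chosen with earlier results of these data known. Alternatives used DESeq2 1.42.0, limma 3.58.1, no filter, a mean of at least 10, other scalings, names in place of sequences, the study's own test, no sequences of the class not placed in the chicken genome, a replicate block and each library left out. CPM levels came from edgeR, and ratios, sums and figures from scipy 1.17.1, numpy 2.4.6, pandas 2.3.3 and matplotlib 3.10.9 under Python 3.11.15. Target predictions and other assays were not analysed here.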

Additional observations from a re-analysis of the deposited data

How the results depend on the processing

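No member passed an adjusted p under 0.05 under any of 20 alternatives. Over all sequences, 12 did so with no filter on low values and 0 otherwise. At an unadjusted p under 0.05 the 46 sequences became 84 with no filter, 29 with a mean of at least 10, 23 with DESeq2, and 31 to 59 with each library left out. Of the members 2 passed that limit with no filter (cfa-miR-99b and cgr-miR-125a-5p), 0 to 1 with each library left out (cgr-miR-125a-5p without C replicate 2), and, chosen after the data were seen, 2 without C replicate 2 and A replicate 2 (the same 2) and 3 without C replicate 2 and A replicate 3 (gga-miR-100-5p, ccr-miR-99 and sha-miR-125a). With the replicate number as a replicate block, 1 member passed (gga-miR-125b-5p, unadjusted p = 0.0446, edgeR adjusted p = 0.632). The numbers share no stated origin. Deviations of log2 CPM from the diet mean of each sequence were correlated between C and A libraries, which is not a correlation of whole profiles. For same-numbered libraries these deviations correlated at 0.05, 0.01 and −0.07 over 774 sequences. Over the 179 of at least 100 CPM they correlated at 0.02, 0.48 and −0.02. Deviations of libraries of different numbers reached similar sizes there, with 0.42 for C replicate 1 and A replicate 3. The correlation was −0.49 for C replicate 1 with A replicate 2 and −0.46 for C replicate 2 with A replicate 3. Deviations cancel within a diet, so positive and negative values are tied to each other.

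With each library left out, log2 fold changes ran from −0.31 to 0.17 for gga-miR-99a-5p, −0.49 to 0.00479 for gga-miR-125b-5p, −0.24 to 0.18 for gga-miR-125b-3p, −0.088 to 0.48 for ssa-miR-99-5p, −0.19 to 0.45 for gga-miR-99a-3p, −3.23 to 2.87 for cfa-miR-99b and −0.40 to 0.35 for aca-miR-99b-5p. The log2 ratio of summed levels ran from −0.29 to 0.17 for all members, −0.26 to 0.21 for miR-99 and miR-100 and −0.45 to 0.026 for miR-125. Without C replicate 2 and A replicate 3 the values were 0.27 for gga-miR-99a-5p, 0.10 for gga-miR-125b-5p, 0.24 for gga-miR-125b-3p, 0.73 for ssa-miR-99-5p, 0.69 for gga-miR-99a-3p, 0.55 for aca-miR-99b-5p and 1.05 for cfa-miR-99b. Without C replicate 2 and A replicate 2 they were 3.26 for cfa-miR-99b, −0.18 for aca-miR-99b-5p and 0.02 for summed miR-99 and miR-100. gga-miR-125b-3p was at 0.0109 with the members left out of the library totals. aca-miR-99b-5p was at −0.00408 with DESeq2 size factors, −0.0143 with the authors' constants, −0.15 with limma, −0.0303 with the study's own test, −0.0295 with the block and −0.0368 per name. The causes were not tested. The ratios kept their direction under all 9 alternatives each. That of the miR-100 arms did so too, but it rests on a single count and is not read.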
